A study of Mus musculus with 2 samples.

Results

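The 9 genes described here were listed for the synthesis, transport and breakdown of retinoic acid: *Rdh10*, *Aldh1a1*, *Aldh1a2*, *Aldh1a3*, *Aldh1a7*, *Stra6*, *Crabp1*, *Crabp2* and *Cyp26a1*. They were taken by name from the 27998 genes counted in both libraries, and all 9 were found. The libraries were made with the 10x Chromium 3′ kit, which tags each captured transcript with a cell barcode and a unique molecular identifier (UMI), from the ocular area (a dissected pair of optic areas) of C57BL/6J mouse embryos at the 26-somite stage. One embryo was wild type (WT) and one was *Mab21l1*-null (KO), with 1 library each, and no further allele or agent is named in the labels. Since each genotype is a single embryo and a single library, differences between them are given as values with counting intervals and were not tested.

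Retinoic acid is made from vitamin A in a pair of steps. RDH10 oxidises retinol to retinal, and ALDH1A1, ALDH1A2 and ALDH1A3 oxidise retinal to retinoic acid. STRA6 is a membrane receptor that takes up retinol from its carrier protein, CRABP1 and CRABP2 bind retinoic acid in the cytosol, and CYP26A1 oxidises it for removal. Retinoic acid then acts through nuclear receptors of the RAR and RXR families, which bind direct repeats of a short sequence in DNA. In the early eye *Aldh1a1* is known from the dorsal and *Aldh1a3* from the ventral retina, and signals from the optic vesicle reach the overlying ectoderm and the mesenchyme around it.

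The promoter of *Cyp26a1* is shown because it holds a repeat of that kind and because the RNA of this gene differed between the libraries in the ectoderm. RefSeq promoters of 300 bases around a start (GRCm38.p6) were at hand for 6 of the 9 members, with 10 starts in all (*Aldh1a3*, *Rdh10* and *Crabp2* were not analysed here). They were searched on both strands for the sequence A or G, then G, then G or T, then TCA (such as AGGTCA), repeated in the same direction with 1, 2 or 5 bases between them. Of 32851 mouse promoters of this length, which overlap where starts are close, 193 (0.588%) held such a repeat, and 32 (0.0974%) held one with a gap of 5. Of the 10 promoters of the members 1 held it, that of *Cyp26a1* at chr19:37697558-37697857 on the plus strand. The repeat has a gap of 5, lies on the minus strand from 32 to 16 bases before the start (chr19:37697776-37697792) and is in capitals in the promoter, which is read along the plus strand. A repeat of the same kind was found from 53 to 37 bases before the start of *Rarb* (chr14:16575513-16575529, minus strand gene), a retinoic acid receptor gene that is a textbook target. Both repeats are given in their own reading direction, with the repeated sequences in capitals.
Cyp26a1 promoter: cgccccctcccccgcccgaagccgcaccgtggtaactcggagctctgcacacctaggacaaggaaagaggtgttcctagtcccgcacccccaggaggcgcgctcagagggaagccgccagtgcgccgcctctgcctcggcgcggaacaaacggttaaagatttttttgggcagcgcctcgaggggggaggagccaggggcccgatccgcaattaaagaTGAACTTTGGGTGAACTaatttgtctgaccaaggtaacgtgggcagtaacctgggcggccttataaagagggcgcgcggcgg
Cyp26a1 repeat: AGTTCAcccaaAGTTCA
Rarb repeat: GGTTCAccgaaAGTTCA
The match describes these letters, and binding was not measured.

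After filtering, 1680 cells with 41880035 UMIs remained in the library labelled WT (median 21037 per cell) and 2404 cells with 52430844 UMIs in the library labelled KO (median 18135). Each cell was placed in the class whose marker genes it expressed most. Neural retina held 346 cells (WT) and 606 (KO), the retinal pigment epithelium (RPE) 204 and 254, forebrain 118 and 165, mesenchyme 472 and 699, surface ectoderm 62 and 49, and endothelium 66 and 105. Within mesenchyme, 174 and 228 cells were Foxc-high and 184 and 296 Alx-high. Neural crest (43 and 44 cells) and erythroid cells (38 and 53) were set beside them, and 734 cells fitted no class. Such a class is a range of a score, not a sharp type. In the neural retina 28 and 44 cells lay within 0.1 past the required lead and 29 and 40 fell short of it by as little. The forebrain class carried its own markers at 265 and 290 UMIs per 1000000 but the neural retina markers at 475 and 408, so its label rests on weak markers. In ectoderm the ectoderm markers were at 1171 and 1181 UMIs per 1000000. Foxc-high cells carried the Foxc list at 393 and 341 and the Alx list at 353 and 349, so they are Foxc-high only against the Alx-high cells (Foxc list at 139.6 and 105). Of the cells gated as neural crest, 58 formed a crest cluster of their own (30 in WT, 28 in KO) and the rest lay in other clusters, 15 of them in one that also held neural retina cells. Levels below are UMIs of a gene per 1000000 UMIs of the class in that library (CPM), with exact 95% Poisson intervals in brackets. Brackets after a ratio are exact conditional intervals. Both cover counting error only.

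RNA of *Mab21l1*, the disrupted gene, was counted in both libraries at 20.3 CPM [18.9, 21.7] in WT and 32.5 CPM [31.0, 34.1] in KO over all cells. In surface ectoderm it was lower in KO, with 37 UMIs [28.2, 55.1 CPM] against 108 UMIs at 86.4 CPM [70.9, 104]. The study also lists it as lower in KO ectoderm, from these same samples. The level over all cells and that in ectoderm ran in opposite directions, so RNA of this gene was not used to judge the labels. The libraries are called the library labelled WT and the library labelled KO, or WT and KO in short, and each direction rests on those labels. RNA from primitive erythroid cells was spread through both libraries, with the 7 erythroid markers at 157 CPM (WT) and 348 CPM (KO) in ectoderm and 183 and 370 CPM in neural retina. In bulk sums of this kind fewer expressing cells and less RNA per cell cannot be told apart, and for that reason shares of cells are given too. Shares are of cells thinned to 10000 UMIs, and the erythroid cells, which should lack these genes, give the background. That background rests on 38 (WT) and 52 (KO) thinned cells, and the erythroid markers took 256143 and 278412 CPM of that class.

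**Figure D1:**
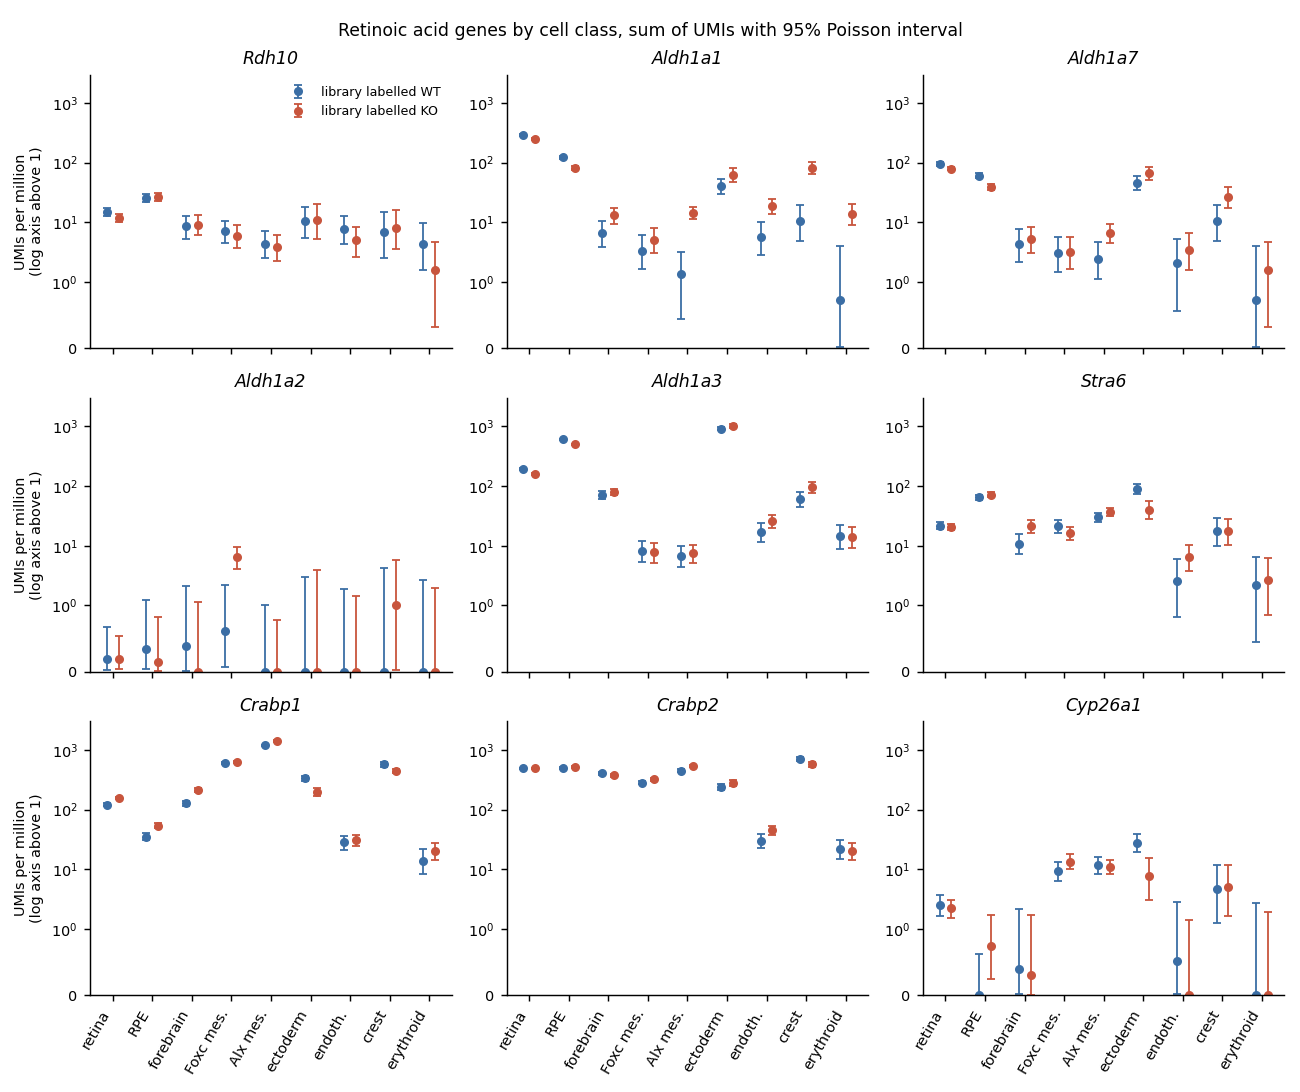
Level of each of the 9 genes (y axis, CPM, log above 1 and linear below) in 9 cell classes (x axis), with blue points for the library labelled WT, red points for the library labelled KO and bars for the exact 95% Poisson interval. *Aldh1a1* and *Aldh1a7* are highest in neural retina, *Aldh1a3* in ectoderm and RPE, *Crabp1* in mesenchyme, and *Aldh1a2* is near 0 outside the Foxc-high mesenchyme labelled KO. For *Aldh1a7* the KO bars of neural retina and ectoderm overlap.

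*Rdh10* (chr1:16105774-16133734, plus strand), the enzyme of the first step, was highest in the RPE, at 25.6 CPM [21.7, 29.98] in WT and 26.3 CPM [22.6, 30.5] in KO. Neural retina followed at 14.8 CPM [12.6, 17.3] and 11.8 CPM [10.2, 13.6]. The RPE intervals lay above those of the retina as a whole in both libraries. The most dorsal of 5 bins of retina cells (below) was at 29.6 CPM [23.1, 37.2] in WT and 19.7 CPM [15.1, 25.3] in KO, which overlap the RPE. Among thinned RPE cells 23.0% (WT) and 24.7% (KO) had an *Rdh10* UMI, against 7.89% and 3.85% of erythroid cells. Of thinned mesenchyme 5.57% and 4.40% had one, and of endothelium 6.25% and 6%. These lie within a few percentage points of the erythroid shares and were not told apart from background. The erythroid shares are 3 of 38 cells [1.66, 21.4]% in WT and 2 of 52 cells [0.469, 13.2]% in KO, too wide to show that they are background.

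*Aldh1a1* (chr19:20492715-20643465, plus strand) was highest in the neural retina, at 291 CPM [281, 301] in WT and 248 CPM [241, 256] in KO. Levels fell off over the RPE (122 and 82.2 CPM) and the ectoderm (39.99 and 62.7 CPM). Foxc-high mesenchyme held 3.35 and 5.08 CPM and the erythroid cells 0.730 and 13.6 CPM, where 21 of the 26 UMIs of KO were in 1 cell. The gene was unevenly spread among retina cells. Without thinning 51.4% of WT and 43.9% of KO retina cells had a UMI, and the highest cell held 185 and 127 UMIs.

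*Aldh1a7* (chr19:20692953-20727562, minus strand) lies beside *Aldh1a1* and is its close paralog. Whether its protein makes retinoic acid was not examined here, so its RNA is not read as a measure of synthesis. It was at 94.9 CPM [89.2, 101] (WT) and 78.7 CPM [74.5, 83.2] (KO) in neural retina, 60.5 and 39.3 CPM in the RPE and 46.4 and 65.9 CPM in ectoderm. In KO the ectoderm interval of [50.4, 84.7] CPM overlapped that of the retina. The transcripts of this pair are 88.8% identical over 2036 aligned positions and 77.5% over their last 500 bases, where 3′ reads fall. None of the 451 stretches of 50 bases at the end of *Aldh1a1* occurs unchanged in *Aldh1a7*. How reads that match both were counted is not given in the sources used here, so the split of this pair is uncertain.

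The mix of this pair differed between classes. *Aldh1a7* made up 24.6% [23.3, 25.9] of the pair's UMIs in WT neural retina and 24.1% [22.9, 25.2] in KO (brackets: exact Clopper-Pearson). In the RPE it made up 33.1% [30.3, 36.0] and 32.3% [29.1, 35.6]. In ectoderm it made up 53.7% [43.9, 63.4] and 51.3% [41.9, 60.5]. In ventral retina the share was 30.2% [24.4, 36.4] in WT and 45.0% [39.4, 50.6] in KO.

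**Figure D2:**
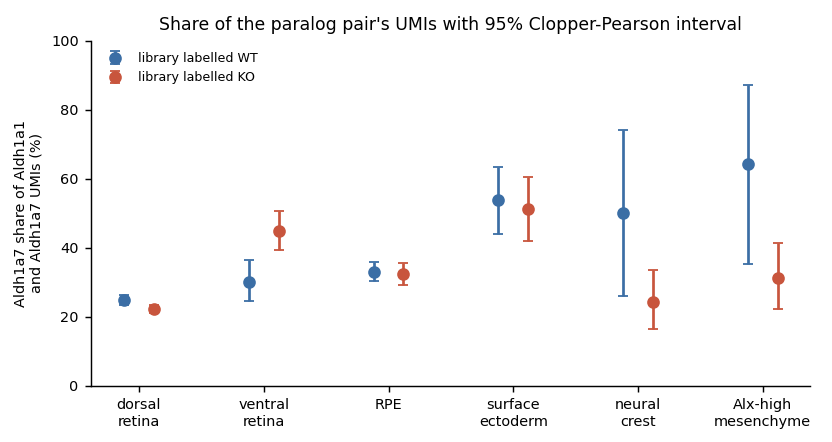
Share of *Aldh1a7* (y axis, % of the UMIs of *Aldh1a1* and *Aldh1a7* together) in 6 cell groups (x axis) for the libraries labelled WT (blue) and KO (red), with exact 95% Clopper-Pearson bars. The share is 24.8% and 22.2% in dorsal retina and 53.7% and 51.3% in ectoderm. In ventral retina the bars of the libraries do not overlap, though the most ventral bin of cells did not show this gap. Neural crest and Alx-high mesenchyme have few UMIs and wide bars in WT.

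*Aldh1a3* (chr7:66390890-66427517, minus strand) was highest in the ectoderm and the RPE. Its level was 911 CPM [859, 966] in WT ectoderm and 1023 CPM [959, 1090] in KO ectoderm. The RPE followed at 607 CPM [587, 627] and 498 CPM [482, 516], and neural retina at 193 CPM [185, 202] and 161 CPM [155, 167]. Forebrain held 71.0 and 79.3 CPM. The order of these 4 classes was the same in both libraries and their intervals did not overlap. Neural crest, at 60.1 and 95.9 CPM, overlapped forebrain in both. In the crest cluster alone *Aldh1a3* was at 8.03 and 2.27 CPM, so the gated level came from the cells outside it. Thinned shares were 87.9% and 88.9% of ectoderm cells and 95.4% and 90.3% of RPE cells. Mesenchyme (5.80% and 5.77%) was close to erythroid cells (5.26% and 3.85%) and was not told apart from background.

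*Aldh1a2* (chr9:71215789-71296243, plus strand), the main retinoic acid enzyme of trunk mesoderm, was nearly absent, with 11 UMIs in all of WT and 43 in KO. In Foxc-high mesenchyme it had 2 UMIs in WT (0.610 CPM [0.0739, 2.203]) and 24 in KO (6.41 CPM [4.11, 9.54]), a ratio of 10.5 [2.61, 91.8]. No UMI was counted in either library in ectoderm, endothelium or Alx-high mesenchyme, where 3 counts would be 2.40 and 3.24 CPM in ectoderm. When cells were grouped by clusters in place of markers, 1 mesenchyme cluster held 4 of the 11 and 29 of the 43 UMIs. That cluster had 27 WT cells (1.61% of the library) and 119 KO cells (4.95%). Within it the levels were 8.92 CPM [2.43, 22.8] and 15.7 CPM [10.5, 22.5], which overlap. The WT level rests on 4 UMIs, so this overlap cannot tell a difference in the share of cells from one in level.

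*Stra6* (chr9:58063788-58153996, plus strand), the retinol receptor, was highest in WT ectoderm, at 88.8 CPM [73.0, 107], followed by the RPE at 65.4 CPM [59.1, 72.2], Alx-high mesenchyme at 29.9 CPM [24.6, 36.0] and neural retina at 21.6 CPM [18.9, 24.6]. In KO the RPE came first at 71.4 CPM [65.1, 78.1], and ectoderm, with 37 UMIs and an interval of [28.2, 55.1] CPM, overlapped Alx-high mesenchyme at 37.1 CPM [31.8, 43.0]. Endothelium and erythroid cells were between 2.19 and 6.49 CPM.

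The binding proteins differed in how widely they were spread. *Crabp1* (chr9:54764748-54773110, plus strand) was highest in Alx-high mesenchyme, at 1192 CPM [1157, 1227] in WT and 1405 CPM [1371, 1439] in KO. Foxc-high mesenchyme held 603 and 633 CPM, neural crest 572 and 444 CPM, ectoderm 334 and 197 CPM, neural retina 120 and 158 CPM, and the RPE 35.3 and 53.8 CPM. *Crabp2* (chr3:87948666-87953376, plus strand) was spread broadly. It was at 491 and 490 CPM in neural retina, 503 and 512 CPM in the RPE, 402 and 378 CPM in forebrain and 451 and 542 CPM in Alx-high mesenchyme. Neural crest was highest at 694 CPM [639, 751] and 571 CPM [525, 620]. In KO this overlapped Alx-high mesenchyme [521, 564] and the RPE [495, 530]. The crest cluster alone held *Crabp2* at 875 CPM [795, 961] and 689 CPM [614, 771]. Endothelium was far lower, at 30.1 and 44.7 CPM, against 21.9 and 20.4 CPM in erythroid cells. In the endothelium cluster, which lacks 1 KO cell of the gated class, the KO level was 29.5 CPM [23.2, 37.0]. Within mesenchyme both genes were higher in the Alx-high than in the Foxc-high cells in each library, by 1.98-fold (WT) and 2.22-fold (KO) for *Crabp1* and by 1.60-fold and 1.68-fold for *Crabp2*. Of the counted members 3 of 6 in WT and 7 of 9 in KO differed by 1.5-fold or more between these groups, where 9.97% and 10.5% of all genes did. These counts include *Rdh10* in both libraries, which was not told apart from background in mesenchyme. In KO they also include *Aldh1a1*, with 22 of its 68 Alx-high UMIs in 1 cell, and *Aldh1a7*.

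*Cyp26a1* (chr19:37697798-37701536, plus strand), the breakdown enzyme, was at 28.0 CPM [19.5, 38.9] in WT ectoderm and 7.57 CPM [3.04, 15.6] in KO ectoderm. Foxc-high mesenchyme held 9.45 CPM [6.42, 13.4] and 13.4 CPM [9.92, 17.6], and Alx-high mesenchyme 11.7 CPM [8.45, 15.7] and 11.03 CPM [8.24, 14.5]. Neural retina was at 2.49 and 2.203 CPM. In the RPE 0 UMIs were counted in WT, where 3 counts would be 0.502 CPM, and 5 in KO. None was counted in erythroid cells, where 3 counts would be 2.19 and 1.57 CPM.

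Within the neural retina the members were compared along the dorsal to ventral axis. Retina cells were split by *Tbx5*, *Tbx2*, *Tbx3*, *Bmp4* and *Efnb2* against *Vax1*, *Vax2*, *Pax2*, *Ephb3* and *Ephb2*, none of which is a member. In WT 118 cells were dorsal and 173 ventral, and in KO 210 and 302. Of the members with at least 20 UMIs, 5 of 7 in WT and 7 of 8 in KO differed by 1.5-fold or more between these groups, where 13.1% and 11.3% of all genes did.

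*Aldh1a1* was at 712 CPM [686, 740] in dorsal and 31.0 CPM [26.5, 36.1] in ventral cells of WT, a ratio of 23.0 [19.6, 27.0]. In KO it was at 619 CPM [599, 639] and 20.9 CPM [18.0, 24.3], a ratio of 29.5 [25.4, 34.6]. *Aldh1a7* followed it, with a dorsal to ventral ratio of 17.5 [13.8, 22.6] in WT and 10.3 [8.67, 12.4] in KO. The first-step enzyme *Rdh10* was also higher dorsally, by 2.84-fold [1.99, 4.10] and 2.06-fold [1.51, 2.82], as was the receptor *Stra6*, by 2.17-fold [1.63, 2.89] and 2.48-fold [1.96, 3.15]. *Aldh1a3* ran the other way. It was at 122 CPM dorsally and 251.5 CPM ventrally in WT, and at 86.4 and 230 CPM in KO, which makes it 2.07-fold and 2.67-fold higher in ventral cells. *Crabp1* was 1.25-fold higher in ventral cells of WT and 1.54-fold in KO, and *Crabp2* was 1.23-fold and 1.41-fold higher in dorsal cells. *Cyp26a1* had 14 dorsal and 3 ventral UMIs in WT and 23 and 10 in KO.

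**Figure D3:**
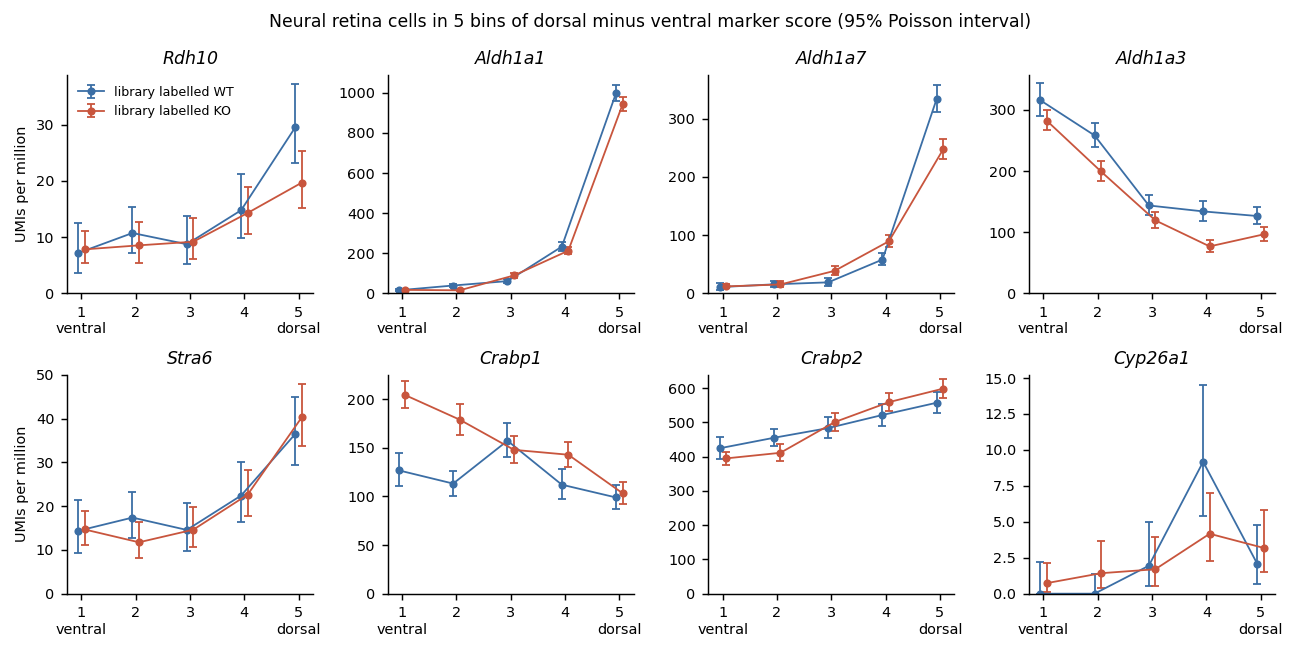
Level of 8 genes (y axes, CPM, each from 0) in neural retina cells sorted into 5 bins of the dorsal minus ventral marker score (x axis, bin 1 most ventral, bin 5 most dorsal) for the libraries labelled WT (blue) and KO (red), with 95% Poisson bars. *Aldh1a1* is at 15.6 and 17.4 in bin 1 and at 999 and 943 in bin 5, while *Aldh1a3* is at 316 and 282 in bin 1 and at 126 and 96.6 in bin 5.

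The change along the axis was not even. *Aldh1a1* stood at 61.2 (WT) and 89.5 CPM (KO) in the middle bin of 5, at 233 and 213 CPM in the next and at 999 and 943 CPM in the most dorsal. *Aldh1a3* was highest in the most ventral bin, at 316 and 282 CPM, and lowest in bin 5 of WT (126 CPM) and bin 4 of KO (76.8 CPM). *Crabp1* was at 127 CPM in the most ventral bin of WT and 204 CPM in that of KO, while its most dorsal bins held 99.0 and 103 CPM. In single thinned retina cells, *Aldh1a3* was found in 38.8% of WT cells with an *Aldh1a1* UMI and in 64.7% of those without. The same shares were 40.7% and 56.3% in KO. *Aldh1a7* was found in 59.0% of WT cells with an *Aldh1a1* UMI and in 14.2% of those without, and in 55.8% and 14.8% in KO.

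Between the libraries the counted members of the neural retina stayed within 1.5-fold, some of them apart by more than counting error. In neural retina 0 of 8 counted members (at least 20 UMIs in the libraries together) were past 1.5-fold, where 6.47% of all genes were. For 8 members a count of 0 is near that share. The CPM intervals of the libraries did not overlap for *Aldh1a1*, *Aldh1a3*, *Aldh1a7* and *Crabp1*. *Aldh1a1*, *Aldh1a3*, *Aldh1a7* and *Rdh10* had KO/WT ratios between 0.799 and 0.854, *Stra6* was at 0.960 [0.810, 1.14], *Crabp2* at 0.998 [0.964, 1.03] and *Cyp26a1* at 0.884 [0.522, 1.51]. *Crabp1* was at 1.31 [1.23, 1.40]. The ratio of *Crabp1* was 1.46 [1.33, 1.60] in ventral and 1.18 [1.05, 1.34] in dorsal cells. *Mab21l1* itself was higher in KO in these cells, at 72.9 CPM against 41.6 CPM.

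In the RPE 2 of 7 counted members were past 1.5-fold, where 8.1% of all genes were. *Aldh1a7* was lower in KO, with a ratio of 0.648 [0.551, 0.762]. *Aldh1a1* was just short of the limit at 0.672 [0.6004, 0.751], with 122 CPM in WT and 82.2 CPM in KO. *Crabp1* was higher in KO at 1.53 [1.28, 1.82]. Its thinned shares were 22.4% in WT and 31.7% in KO, beside 21.1% and 17.3% of erythroid cells, so the WT share was not told apart from background. In the cluster with most of the gated RPE cells *Crabp1* was at 28.2 CPM [23.6, 33.5] and 40.9 CPM [35.7, 46.6]. The intervals overlapped in the other clusters named RPE. *Rdh10*, *Stra6* and *Crabp2* lay between 1.02 and 1.09, and *Aldh1a3* was at 0.821 [0.783, 0.861].

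In forebrain 3 of 7 members were past 1.5-fold, where 10.6% of all genes were. *Crabp1* was higher in KO, at 211 CPM [196, 227] against 127 CPM [113, 141], a ratio of 1.67 [1.46, 1.91]. *Stra6* had 28 UMIs in WT and 70 in KO, a ratio of 1.97 [1.26, 3.18], and *Aldh1a1* 17 and 43 UMIs, of which 8 and 18 were in 1 cell. The directions of *Stra6* and *Aldh1a1* turned when cells were classed by clusters, to a log2 ratio of -0.0897 and -0.97, and that of *Crabp1* did not. The clusters named forebrain hold many other cells, and 1 of them has 138 cells gated as neural retina beside 43 gated as forebrain.

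In the mesenchyme the abundant members *Crabp1* and *Crabp2* differed little between the libraries. In Alx-high cells *Crabp1* had a ratio of 1.18 [1.13, 1.23], *Crabp2* of 1.20 [1.13, 1.28], *Stra6* of 1.24 [0.973, 1.59] and *Cyp26a1* of 0.944 [0.618, 1.45]. Of 8 counted members 2 were past 1.5-fold, where 9.23% of all genes were. These were *Aldh1a1*, with 5 UMIs in WT and 68 in KO, 22 of them in 1 cell, and *Aldh1a7*, with 9 and 31. Thinned shares of *Aldh1a1* were 0.595% and 5.36% there, beside 2.63% and 3.85% of erythroid cells. In each mesenchyme cluster the intervals of the libraries overlapped for both genes. The cluster highest in *Crabp1* (110 WT and 324 KO cells) held *Aldh1a1* at 3.26 CPM [1.31, 6.73] and 3.38 CPM [1.97, 5.41]. Of the cells gated as mesenchyme, 19 lay in a cluster with 38 cells gated as neural retina. Their part in the gated difference was not tested. In Foxc-high cells 2 of 9 were past 1.5-fold, where 10.5% of all genes were, *Aldh1a2* (above) and *Aldh1a1*, with 11 and 19 UMIs. *Cyp26a1* was at 9.45 and 13.4 CPM there, with overlapping intervals. In the largest mesenchyme cluster (274 WT and 309 KO cells) *Cyp26a1* was at 15.2 CPM [12.2, 18.7] in WT and 28.6 CPM [24.2, 33.5] in KO. Its intervals overlapped in the other mesenchyme clusters. In neural crest *Aldh1a1* was at 10.4 CPM [4.76, 19.8] in WT and 82.6 CPM [65.6, 103] in KO, in 5% and 23.3% of thinned cells. In the crest cluster alone it had 0 UMIs in WT and 5 in KO (11.3 CPM [3.68, 26.5]), so most of the gated UMIs were in cells outside that cluster. The neural retina markers were at 205 and 419 CPM in the gated cells, and their part in this was not tested.

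In endothelium 4 of 6 counted members were past 1.5-fold, where 12.4% of all genes were. All 4 were at low counts: *Aldh1a1* had 11 UMIs in WT and 49 in KO, 25 of the latter in 1 cell, *Aldh1a3* 33 and 68, *Stra6* 5 and 17, and *Rdh10* 15 and 13. In the endothelium cluster, with 104 KO cells in place of 105, *Aldh1a3* had 33 UMIs in WT and 39 in KO. Thinned shares of *Aldh1a3* (6.25% and 7%) and *Stra6* (1.56% and 4%) were near those of erythroid cells (5.26% and 3.85% for *Aldh1a3*, 2.63% and 3.85% for *Stra6*). These values were not told apart from background.

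**Figure D4:**
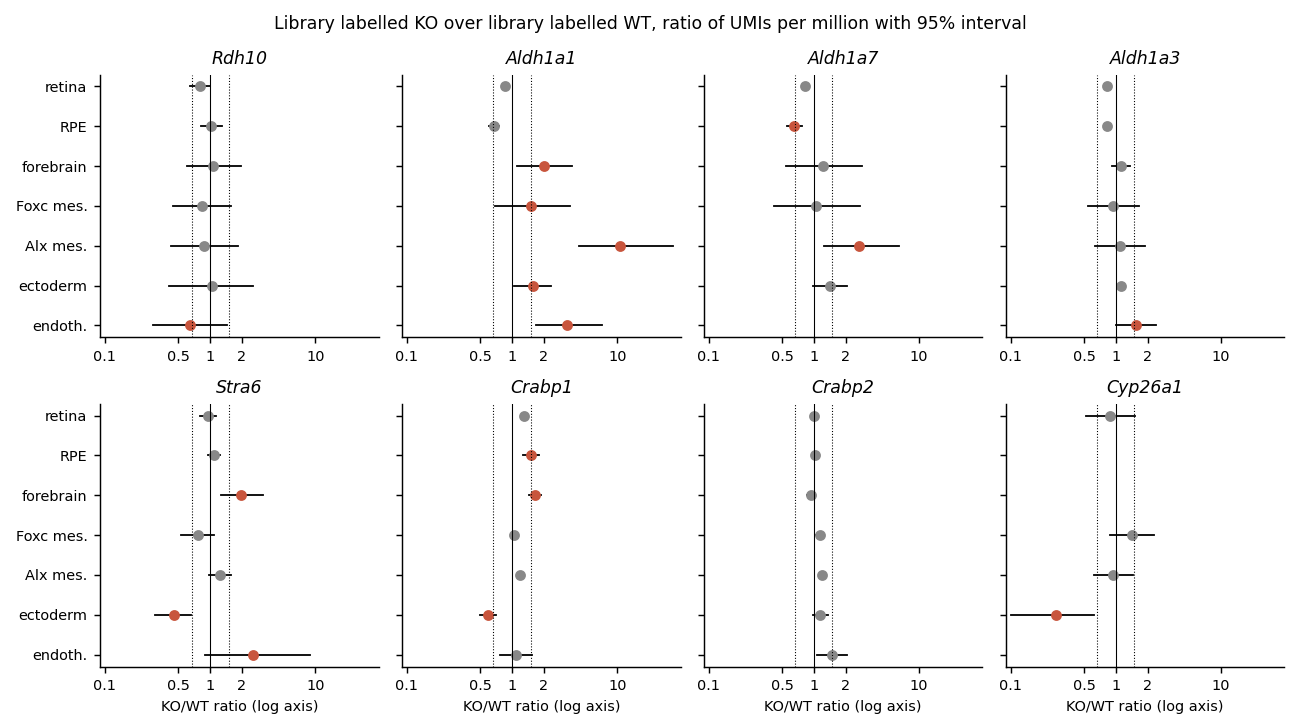
Ratio of the library labelled KO to the library labelled WT (x axis, log scale) for 8 genes in 7 cell classes (rows), with points for the ratio of CPM, red where past 1.5-fold (dotted lines) and grey otherwise, and bars for the exact 95% interval. Pairs with under 20 UMIs are not drawn. *Stra6*, *Crabp1* and *Cyp26a1* lie left of the lines in ectoderm. Over all 9 genes 17 of 53 counted pairs are past the lines. By class, from 6.47% (neural retina) to 17% (ectoderm) of all genes were past them. Some of these pairs rest on low counts or largely on 1 cell, as given in the text.

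In the surface ectoderm, the tissue that gives rise to the lens, 4 of 8 counted members were past 1.5-fold, where 17% of all genes were: *Stra6*, *Crabp1* and *Cyp26a1* were lower and *Aldh1a1* higher in KO. *Stra6* had 111 UMIs in 62 WT cells and 37 UMIs in 49 KO cells, a ratio of 0.451 [0.302, 0.659]. The study had chosen *Stra6* on these samples as a gene lower in the KO ectoderm and higher in the lens placode, so its directions here and between the ectoderm parts are not independent evidence. *Cyp26a1* had 35 and 7 UMIs, a ratio of 0.270 [0.101, 0.618], with 11 of the WT UMIs in 1 cell. Without the highest cell of each library the ratio was 0.280 [0.0835, 0.749]. *Crabp1* had 417 and 182 UMIs, a ratio of 0.590 [0.493, 0.704], with 101 of the WT UMIs in 1 cell and 16 of the KO UMIs in 1 cell. Without the highest cell of each library it was 0.708 [0.584, 0.858] and no longer past the limit. *Aldh1a1* had 50 and 58 UMIs, a ratio of 1.57 [1.06, 2.34], with 16 of the WT and 14 of the KO UMIs in 1 cell each. In the ectoderm cluster it had 44 UMIs in each library, at 37.1 CPM [26.9, 49.7] in WT and 48.1 CPM [35.0, 64.6] in KO, which overlap. *Aldh1a3* at 1.12 [1.03, 1.22] and *Crabp2* at 1.15 [0.972, 1.37] were within the limit.

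In thinned cells the whole ectoderm kept these directions. A *Cyp26a1* UMI was found in 22.4% of 58 WT and 8.89% of 45 KO ectoderm cells, a *Stra6* UMI in 46.6% and 37.8%, and an *Aldh1a1* UMI in 17.2% and 33.3%. Before thinning 17 of 62 WT and 3 of 49 KO ectoderm cells held 3 or more *Stra6* UMIs. The neural retina markers were at 256 CPM in WT and 349 CPM in KO ectoderm, the RPE markers at 80.8 and 106 CPM and the mesenchyme markers at 75.2 and 109 CPM, all 3 higher in KO as *Aldh1a1* was. Their part in the *Aldh1a1* level was not tested.

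Ectoderm cells were further split by lens placode markers (*Pax6*, *Six3*, *Sox2*, *Foxe3*, *Prox1*, *Maf*) and markers of the ectoderm around it, into 31 and 20 placode cells and 25 and 25 surrounding cells. *Pax6*, *Six3* and *Maf* were themselves chosen by the study as genes that differ, which bears on which KO cells count as placode. The placode markers were at 721 CPM over WT ectoderm and 509 CPM over KO ectoderm. In WT 5 of 7 counted members differed by 1.5-fold or more between these parts, where 27.1% of all genes did, and in KO 4 of 6, where 25.5% did.

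In the placode cells *Stra6* was at 125 CPM [99.8, 154] in WT and 46.8 CPM [29.3, 70.9] in KO, a ratio of 0.375 [0.224, 0.605]. In the surrounding cells it was at 42.5 and 31.9 CPM, a ratio of 0.751 [0.341, 1.60]. *Stra6* was therefore 2.94-fold [1.77, 5.11] higher in placode than in surrounding cells in WT and 1.46-fold [0.706, 3.17] in KO. Of placode cells 15 of 31 in WT and 1 of 20 in KO held 3 or more *Stra6* UMIs. The share of thinned placode cells with any *Stra6* UMI was 58.6% in WT and 57.9% in KO, which does not show the difference that the CPM does. *Crabp1* was at 398 CPM [352, 448] and 153 CPM [120, 193] in placode cells, a ratio of 0.385 [0.293, 0.501], or 0.552 [0.406, 0.741] without the highest cells. In surrounding cells its ratio was 0.868 [0.659, 1.14]. *Cyp26a1* had 16 and 1 UMIs in placode cells, found in 5 of 31 and 1 of 20 cells, with 11 of the 16 in 1 cell. In surrounding cells it had 16 and 6 UMIs, found in 10 of 25 and 4 of 25 cells before thinning.

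The aldehyde dehydrogenases did not share that direction. *Aldh1a3* was at 1087 CPM [1010, 1167] in WT and 1195 CPM [1099, 1299] in KO placode cells, each of which held a UMI of it. In surrounding cells it was at 506 CPM [442, 576] and 835 CPM [749, 929], a ratio of 1.65 [1.39, 1.96]. The placode to surrounding ratio was thus 2.15 [1.85, 2.51] in WT and 1.43 [1.25, 1.64] in KO. *Aldh1a1* was 7.30-fold [2.66, 27.9] higher in placode cells in WT and 4.07-fold [2.03, 9.03] in KO, on 4 and 10 surrounding UMIs. The highest placode cell held 16 of its UMIs in WT and 14 in KO. Neural retina markers were at 351 and 523 CPM in placode cells and at 103 and 152 CPM in surrounding cells. The placode markers were themselves at 633 and 618 CPM in neural retina, where *Aldh1a1* was highest. The part of retina RNA in this contrast was not tested.

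**Figure D5:**
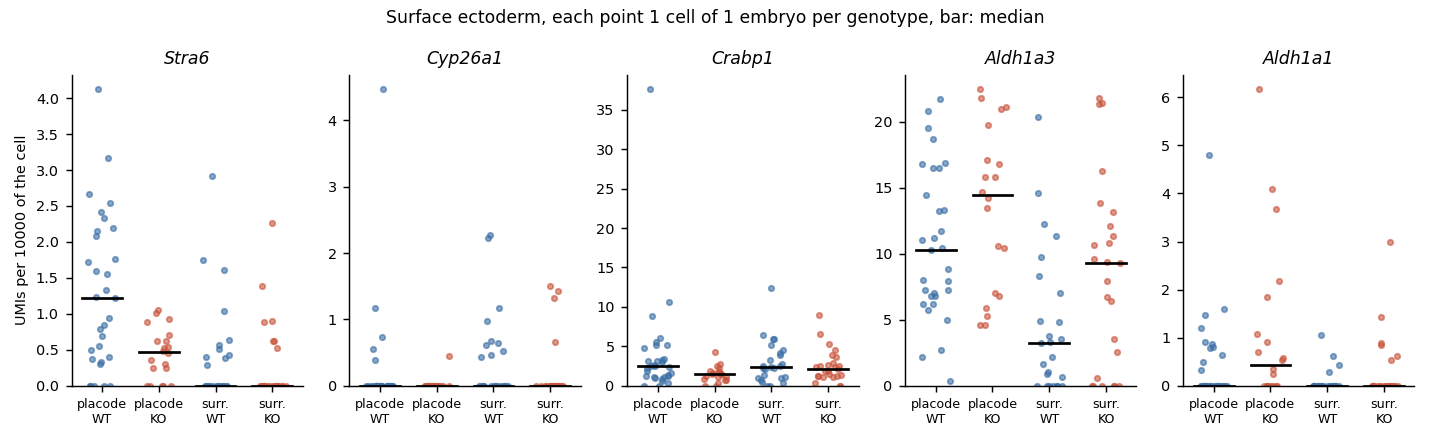
UMIs per 10000 of the cell (y axes, each from 0) for 5 genes in single surface ectoderm cells, split into placode and surrounding cells (x axis) of the libraries labelled WT (blue) and KO (red), with bars at the median of each group. Placode cells show a median *Stra6* value of 1.22 in WT and 0.468 in KO, and single high cells stand out for *Cyp26a1* and *Crabp1* in WT. Cells are of 1 embryo per genotype and are not replicates.

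A list of 43 other genes of the retinoic acid pathway was set beside the members. In ectoderm 3 of 18 counted genes of that list were past 1.5-fold, where 17% of all genes were, *Cyp26b1* and *Cyp1b1* higher and *Rdh11* lower in KO. *Cyp26b1*, the other breakdown enzyme with RNA in these cells, ran opposite to *Cyp26a1*. It had 17 UMIs (13.6 CPM [7.92, 21.8]) in WT and 42 UMIs (45.4 CPM [32.7, 61.4]) in KO ectoderm, a ratio of 3.34 [1.86, 6.26]. The difference was in the placode cells, with 10 UMIs in WT and 38 in KO, a ratio of 5.57 [2.72, 12.5], while the surrounding cells had 4 and 2. In endothelium *Cyp26b1* was lower in KO, at 23.3 CPM [17.8, 29.9] against 65.3 CPM [54.5, 77.7] in WT.

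In neural retina 2 of 26 counted genes of the list were past 1.5-fold, in the RPE 4 of 25, in forebrain 4 of 16, in Foxc-high mesenchyme 4 of 21, in Alx-high mesenchyme 3 of 22 and in endothelium 4 of 21, beside the shares of all genes given above. Among the other breakdown enzymes *Cyp26b1*, given above, was past the limit in ectoderm. In each of the other roles the gene with the highest level lay within the limit in ectoderm as a whole. *Adh5*, an alcohol dehydrogenase, was at 132 and 100.5 CPM there, *Fabp5*, a fatty acid binding protein that also binds retinoic acid, at 382 and 495 CPM, the co-regulator gene *Nrip1* at 158 and 184 CPM and the target *Nr2f1* at 210.4 and 227 CPM. In placode cells alone *Fabp5*, *Nrip1* and *Nr2f1* were higher in KO, with ratios of 1.51 [1.25, 1.82], 1.65 [1.27, 2.16] and 1.65 [1.26, 2.16], and *Adh5* lower at 0.535 [0.352, 0.795]. The neural retina markers were at 351 and 523 CPM and the ventral optic vesicle markers at 62.4 and 153 CPM in the same cells, and their part in these ratios and in that of *Cyp26b1* was not tested. *Rarb*, whose repeat is printed above and which was picked for it after values were seen, was at 14.4 and 14.1 CPM in ectoderm and at 106 and 105 CPM in Alx-high mesenchyme.

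Genes whose level followed each member over 8 classes in both libraries were sought among 12183 genes by Pearson's r of log2(CPM + 1), as a description over 16 points that share libraries and tissue. *Aldh1a1* was most like *Tbx5* (r = 0.934), *Aldh1a7* (0.933) and *Imp3* (0.924). *Tbx5* was among the dorsal markers but was not used to place cells in these classes. *Aldh1a7* was most like *Mab21l1* (0.951), then *Eif3k* (0.935). *Aldh1a3* was most like *Sapcd1* (0.979) and *Otx1* (0.970), the latter an RPE marker of the gate, and *Tom1l1* (0.957). *Car4* (0.935) and *Atp6v1d* (0.930) were among the genes most like *Rdh10*. *Stra6* was most like *Anks3* (0.918), *Syne4* (0.909) and *Phgdh* (0.901), and *Cyp26a1* like *Ackr3*, *Thra* and *Ror1* (each 0.928). *Crabp1* was most like *Efna2* (0.956), *Mex3a* (0.947) and *Tnrc6c* (0.945), and *Crabp2* like *Metrn* (0.956), *Idnk* (0.951) and *Fabp5* (0.944). *Aldh1a2*, at 54 UMIs in all, was not ranked.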

How the data were processed

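The submitters' processing notes name Cell Ranger and the mm10 (GRCm38) build. The deposited counts are whole UMI numbers for each gene in each cell, not scaled by cell. The methods state that the authors combined both libraries with the aggr program, a step that may discard reads of the deeper library. Kept were 4084 cells, the number the study also gives, those between 1500 and 8000 genes whose mitochondrial share did not pass 5%, of the 1745 and 2458 barcodes, of which 15 sequences occur in both libraries. The mitochondrial limit is written in the methods as a percentage but was read as a fraction of 0.05. Cells were classed by the mean z-score of marker genes, with a lead of 0.2 over the next class and a score of at least 0.2 (retina, RPE, forebrain, mesenchyme) or 1 (other classes). Retina, mesenchyme and ectoderm were split further by a lead of 0.2 between their marker lists. These thresholds were set after marker scores had been seen. UMIs were summed per class and library. A gene was counted at 20 or more UMIs in both libraries together, and called past the limit at 1.5-fold either way. With 1 library per genotype no p-value was computed. Intervals (95%, scipy 1.17.1) cover counting error only, since UMIs of 1 embryo are not replicates.

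The members and lists were chosen with earlier results of these data known. The genes named are all 9 members in every class, the pathway genes with the highest level in each role, the 3 genes most like each member with at least 100 UMIs, of which 1 is not reported here, and *Mab21l1*. Pathway genes past the limit are also named where few, as is *Rarb*, after their values were seen. Doublets were scored with Scrublet (scanpy 1.11.5, expected rate 0.05), which called 4 and 7 of the barcodes, too few for the caller to be taken as having worked, and no cell was removed as a doublet. Alternatives were cell filters, classes from clusters, wider leads, other scalings, thinning to 10000 UMIs and other UMI minimums. The ratios and intervals were run on simulated counts with set folds, drawn around the WT levels with counting error only. Such counts hold no spread between cells or embryos, so they cannot show whether the intervals would cover it. Of the gene identifiers in the files, 27722 of 27998 matched GENCODE vM21 of GRCm38, all 9 members among them, and no exon of another gene overlaps theirs. Sequences are from RefSeq (GRCm38.p6). Python 3.11.15, numpy 2.4.6 and pandas 2.3.3 were used.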

Additional observations from a re-analysis of the deposited data

How the results depend on the processing

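Over 87 values and 696 alternative values, 627 kept their direction and size, 60 moved and 9 turned direction. These were unevenly spread over the settings. With classes from clusters 50 stayed the same, 19 moved and 3 turned, and with thinned cells 56, 14 and 2. Scaling by trimmed means and totals without globin and mitochondrial genes each left 54 the same and moved or turned none. The count of 17 pairs of member and class past 1.5-fold lay between 11 and 19, and was 11 with a minimum of 50 UMIs. In the main setting from 6.47% (neural retina) to 17% (ectoderm) of all genes were past that limit, by class. A wider gap between dorsal and ventral markers gave log2 dorsal to ventral values of 4.82 (WT) and 5.41 (KO) for *Aldh1a1*, against 4.52 and 4.88, and of -1.40 and -1.66 for *Aldh1a3*, against -1.05 and -1.41. The log2 KO/WT ratio of *Aldh1a1* turned to -0.0302 in Foxc-high mesenchyme without the cells in the top 5% of Scrublet scores (an alternative chosen after seeing the data) and to -0.35 with a wider marker lead, which also turned it to -0.0548 in forebrain. With classes from clusters it turned to -0.97 in forebrain, *Stra6* to -0.0897 in forebrain and *Aldh1a3* to -0.14 in endothelium. There 1 KO cell gated as endothelium lay in another cluster, and *Aldh1a3* had 39 KO UMIs in the cluster against 68 in the gated class. *Aldh1a3* in endothelium turned to -0.0589 with thinned cells. *Aldh1a2*, with few UMIs in WT, turned in Foxc-high mesenchyme over forebrain to -0.0116 (mean of scaled cells) and -0.49 (thinned cells). Beyond that 1 cell, the cause of each was not tested. *Stra6* and *Cyp26a1* in ectoderm kept their direction under each of these settings, with log2 ratios from -1.27 to -1.14 and from -1.96 to -1.22, the last with thinned cells. No paired analysis was possible because each genotype has 1 library. The depth limits *Cyp26a1* and *Aldh1a2* most, as 3 counts are 2.40 CPM in WT and 3.24 CPM in KO ectoderm.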
